A study of Mus musculus with 10 samples.

Results

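The hippocampus is built of subfields whose excitatory neurons carry different marker genes, and 10 such genes were followed here across 10 expression arrays to find out whether the subfields were represented evenly over arrays and groups. The genes were chosen by name. Prox1, Dsp and C1ql2 mark granule neurons of the dentate gyrus, Wfs1, Fibcd1 and Spink8 mark pyramidal neurons of CA1, Rgs14, Amigo2 and Pcp4 mark those of CA2, and Bok marks those of CA3. A probe was assigned to a gene through its RefSeq accession. All 10 genes were found, each with 1 probe, among 17597 named genes and 39142 probes tested.

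The arrays measured total RNA of the whole hippocampus of mice on a C57BL/6 background, labelled as males of 12 weeks, with 1 mouse per array. The 5 control mice, named PGC-1αf/f, carried in the Rosa26 locus a PGC-1α transgene silenced by a floxed PGK-neo-STOP cassette, and they lacked Cre. The 5 nPGC-1α mice carried the same transgene, with an IRES-eGFP reporter, together with Cre driven by Eno2, the gene of neuron-specific enolase, so that overexpression of PGC-1α was intended for neurons. No mouse had surgery. PGC-1α is a transcriptional coactivator of mitochondrial genes.

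Information enters the hippocampus mainly at the dentate gyrus, whose granule neurons send mossy fibres to CA3. CA3 neurons project to CA1, the main output together with the subiculum, and CA2 is a small field between CA3 and CA1 that is linked to social memory. Their markers are used to follow the makeup of dissected samples. In bulk RNA, fewer cells of a type and less RNA per cell cannot be told apart.

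Before the groups were compared, the arrays were set against their labels. Ppargc1a, the gene of PGC-1α, lay between 2.06 and 2.34 on all 10 arrays, and its difference between groups was 0.00 in log2 units (standard error 0.09, limma adjusted p 0.99). Therefore its mRNA, as read by the tested probe, did not set the groups apart, and the directions below rest on the labels. Whether this probe reads the transgene transcript was not tested. For nPGC-1α mice the paper reports raised PGC-1α protein by Western blot and eGFP in neurons of brain sections. Y-linked transcripts were high on 4 arrays and low on 6 although all mice are labelled male. Of these 6 arrays 4 were PGC-1αf/f and 2 were nPGC-1α. Replicates 1 to 4 of both groups were hybridised on slide 1, each group in its own row, so that group and row cannot be told apart on it, and replicate 5 of both groups on slide 2. Levels are given as log2 intensity relative to the 75th percentile of the array, so that a level of 0 equals that percentile and a step of 1 is a doubling.

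All 10 markers were well above background on all 10 arrays, and each lay above the median level of the tested probes. Markers of the 4 subfields were thus detected in each sample of the labelled tissue. Over the whole array, detection was uneven between the groups. Every control array had at least 74.5% well above background, whereas no array labelled nPGC-1α had more than 73.4%. The cause of this was not tested. Between the groups, 0 of the 10 markers passed an adjusted p of 0.05 by limma, where 0.00255% of all tested probes did. At an unadjusted p of 0.05, 1 marker, Spink8, differed, where 11.9% of all tested probes and 6.43% of the probes above the median level did. With no filter on dim probes the share of probes was 19.5%. With only probes well above background on all 10 arrays it was 10.5%. The groups overlapped for all 10 markers, 7 of which had 10 values. They did not overlap for 2.74% of the probes with 10 values, so 0 of 10 markers is near that share. The nPGC-1α mean was higher for 7 markers and lower for 3, with a median difference of 0.10, beside a median of -0.04 over all tested probes.

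**Figure D1:**
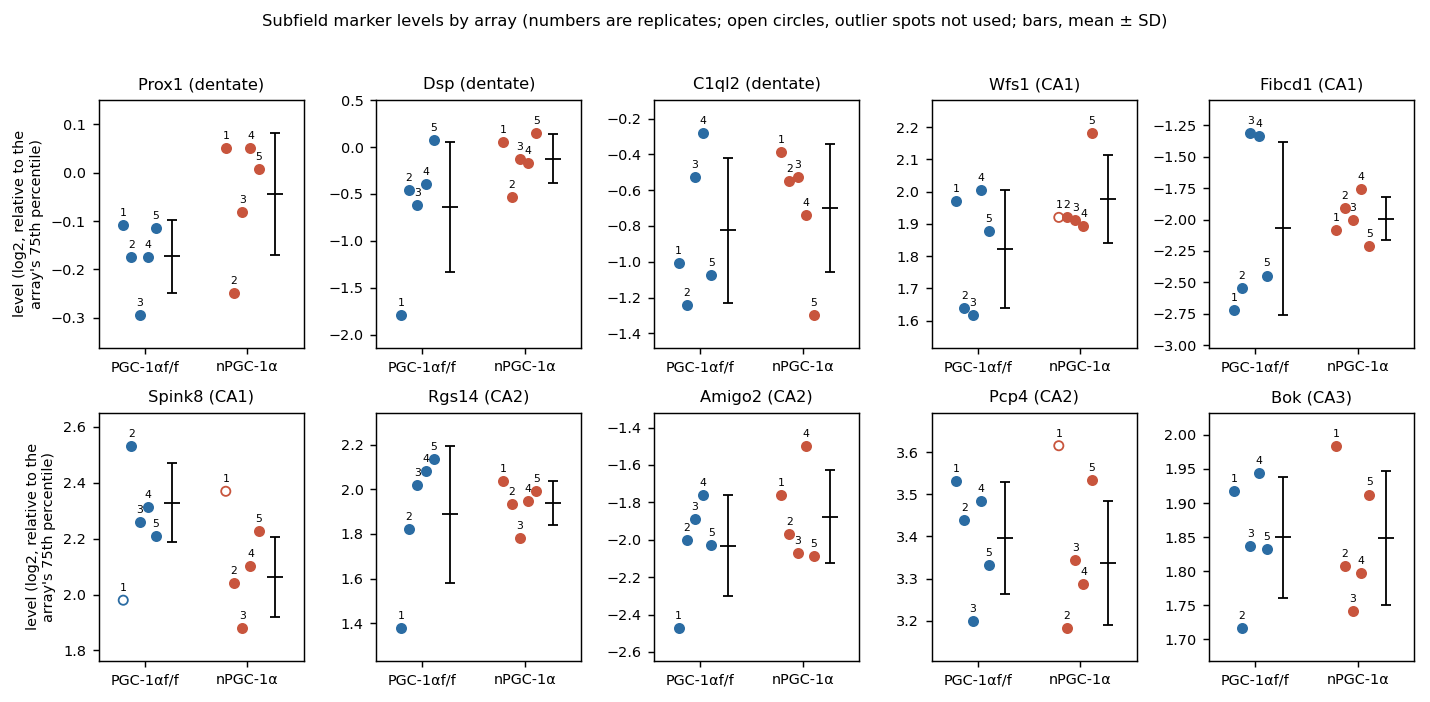
Level of each of the 10 subfield markers on each array (log2, relative to the 75th percentile of the array), with the mean and SD of each group at the right of its points. Open circles are outlier spots that were not used, all of them on replicate 1 arrays, and the ranges of both groups overlap in every panel.

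Among the dentate markers, Prox1, a homeobox transcription factor that keeps granule neuron identity, had the steadiest level. Its level was -0.11, -0.17, -0.29, -0.17 and -0.11 on PGC-1αf/f replicates 1 to 5 and 0.05, -0.25, -0.08, 0.05 and 0.01 on nPGC-1α replicates 1 to 5. Of the 5 nPGC-1α arrays 4 lay above the control mean, while replicate 2 lay near the bottom of the control range. The difference of 0.13 had a 95% confidence interval of -0.06 to 0.32, and it did not pass the test (limma unadjusted p 0.169, adjusted p 0.583, exact permutation p 0.0873).

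Dsp, which encodes desmoplakin, a linker of desmosomes to intermediate filaments, had the largest difference of the 10 markers. Its level was -1.79, -0.46, -0.62, -0.39 and 0.07 on PGC-1αf/f replicates 1 to 5. On nPGC-1α replicates 1 to 5 it was 0.05, -0.53, -0.12, -0.17 and 0.15. All 5 nPGC-1α arrays lay above the control mean, but 1 array, PGC-1αf/f replicate 1, lay far below the other 9. The difference was 0.51, or 1.43-fold with an interval of 0.915-fold to 2.23-fold, and it did not pass the test (limma unadjusted p 0.106, adjusted p 0.513, exact permutation p 0.135). It was 0.23 without PGC-1αf/f replicate 1 (unadjusted p 0.22), 0.69 without PGC-1αf/f replicate 5 (unadjusted p 0.0313) and 0.00 over the 6 arrays with low Y-linked transcripts.

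C1ql2 encodes a secreted C1q-like protein of mossy fibre synapses. Its level was -1.01, -1.24, -0.52, -0.28 and -1.07 on PGC-1αf/f replicates 1 to 5 and -0.39, -0.55, -0.53, -0.74 and -1.30 on nPGC-1α replicates 1 to 5. Both groups held low and high arrays, with the lowest value on nPGC-1α replicate 5. The difference of 0.13 lay within an interval of -0.35 to 0.60 (limma adjusted p 0.839, exact permutation p 0.603). The difference was 0.21 on slide 1 and -0.23 between the replicate 5 arrays of slide 2.

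Of the CA1 markers, Wfs1 encodes wolframin, a protein of the endoplasmic reticulum membrane. Its level was 1.97, 1.64, 1.62, 2.01 and 1.88 on PGC-1αf/f replicates 1 to 5 and 1.92, 1.91, 1.89 and 2.18 on nPGC-1α replicates 2 to 5. The spot of nPGC-1α replicate 1 was marked as an outlier and not used. Of the 4 nPGC-1α arrays used, 3 lay between 1.89 and 1.92 and replicate 5 stood above them. The difference was 0.16 with an interval of -0.11 to 0.42 (limma adjusted p 0.63, exact permutation p 0.246).

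Fibcd1 encodes a transmembrane receptor with a fibrinogen-like domain. Its level was -2.72, -2.54, -1.31, -1.34 and -2.45 on PGC-1αf/f replicates 1 to 5 and -2.09, -1.91, -2.00, -1.76 and -2.21 on nPGC-1α replicates 1 to 5. The control arrays fell into 3 low and 2 high values, and all 5 nPGC-1α arrays lay between them. The means, -2.07 ± 0.69 and -1.99 ± 0.17 (SD, n = 5 each), differed by 0.08, with an interval of -0.54 to 0.69 (limma adjusted p 0.93, exact permutation p 0.817).

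Spink8, a Kazal-type serine peptidase inhibitor, was the marker that passed the unadjusted level. Its level was 2.53, 2.26, 2.31 and 2.21 on PGC-1αf/f replicates 2 to 5 and 2.04, 1.88, 2.10 and 2.23 on nPGC-1α replicates 2 to 5. All 4 nPGC-1α arrays lay below the control mean, and replicate 5 of nPGC-1α lay above replicate 5 of PGC-1αf/f. The difference was -0.27 (standard error 0.12, limma unadjusted p 0.0496, adjusted p 0.419, exact permutation p 0.0571, where 4 against 4 arrays cannot give less than 0.0286). A lower level at this unadjusted p was seen for 8.52% of all tested probes. Both replicate 1 spots were outliers and not used, and they ran the other way, with 1.98 in the control mouse and 2.37 in the nPGC-1α mouse. The unadjusted call was lost when replicate 2, 3 or 4 of either group was left out. With the outlier spots kept, the difference was -0.14 (limma unadjusted p 0.3, exact permutation p 0.31).

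The CA2 markers gave no difference past the test. Rgs14, a regulator of G protein signalling that restrains synaptic plasticity in CA2, was at 1.38, 1.82, 2.02, 2.08 and 2.13 on PGC-1αf/f replicates 1 to 5 and at 2.04, 1.93, 1.78, 1.95 and 1.99 on nPGC-1α replicates 1 to 5. As with Dsp, PGC-1αf/f replicate 1 stood below all other arrays. The difference of 0.05 had an interval of -0.26 to 0.36 (limma adjusted p 0.905, exact permutation p 0.825).

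Amigo2, a cell adhesion molecule with leucine-rich repeats, was at -2.47, -2.00, -1.89, -1.76 and -2.03 on PGC-1αf/f replicates 1 to 5 and at -1.76, -1.97, -2.07, -1.50 and -2.09 on nPGC-1α replicates 1 to 5. PGC-1αf/f replicate 1 was again the lowest of the 10 arrays and nPGC-1α replicate 4 the highest. The difference of 0.15 had an interval of -0.19 to 0.50 (limma adjusted p 0.711, exact permutation p 0.405), and it was 0.04 without the former array and 0.06 without the latter. Pcp4, a small calmodulin-binding protein, was at 3.53, 3.44, 3.20, 3.48 and 3.33 on PGC-1αf/f replicates 1 to 5 and at 3.18, 3.34, 3.29 and 3.53 on nPGC-1α replicates 2 to 5, the replicate 1 spot being an outlier. Unlike the other CA2 markers, Pcp4 was not low on PGC-1αf/f replicate 1, where it was at its highest control value. The difference was -0.06 with an interval of -0.30 to 0.18 (limma adjusted p 0.847, exact permutation p 0.516).

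Bok, a member of the Bcl-2 family and here the marker of CA3, was at 1.92, 1.72, 1.84, 1.94 and 1.83 on PGC-1αf/f replicates 1 to 5 and at 1.98, 1.81, 1.74, 1.80 and 1.91 on nPGC-1α replicates 1 to 5. The values of both groups covered nearly the same range. The group means of 1.85 ± 0.09 and 1.85 ± 0.10 (SD, n = 5 each) differed by 0.00, with an interval of -0.19 to 0.18 (limma adjusted p 0.998, exact permutation p 0.992).

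**Figure D2:**
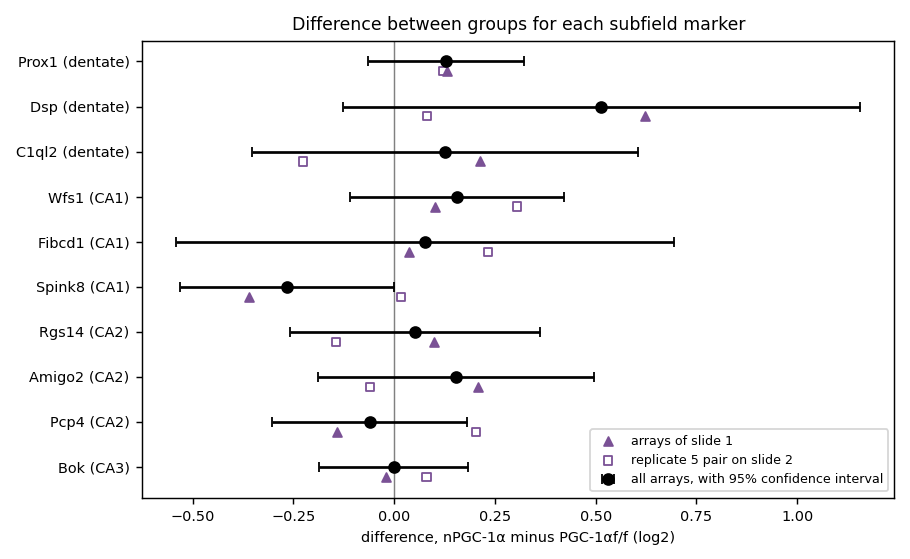
Difference of each marker between nPGC-1α and PGC-1αf/f arrays on the log2 scale, with the 95% confidence interval of the limma fit (circles and bars), the difference over the arrays of slide 1 (triangles) and the replicate 5 pair of slide 2 (open squares). All 10 adjusted p-values lie between 0.419 and 0.998, and the widest interval is that of Dsp, from -0.13 to 1.16.

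The precision of the comparison varied among the markers. The 95% interval lay within 0.5 of 0 in both directions for 6 markers, namely Prox1, Wfs1, Rgs14, Amigo2, Pcp4 and Bok. For Dsp, C1ql2 and Fibcd1 it held both 0 and 0.5, so that a change of that size could not be told from no change for these genes with 5 arrays per group. For Spink8, with 4 arrays per group, it ran from -0.53 to 0.00.

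The width of the intervals followed the spread between mice of the same group. The within-group SD was 0.52 for Dsp, 0.50 for Fibcd1 and 0.38 for C1ql2, larger than for 92.6%, 91.4% and 81.1% of the tested probes. At the other end it was 0.10 for Prox1 and 0.09 for Bok, larger than for only 6.86% and 4.28% of probes. The remaining markers lay between 0.14 for Pcp4 and 0.26 for Amigo2, and the median over all tested probes was 0.23. The level of Dsp covered a 3.85-fold range over the 10 arrays, while that of Bok covered 1.20-fold. Markers of the same subfield differed in this respect, with Prox1 and Dsp, both dentate genes, near opposite ends.

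**Figure D3:**
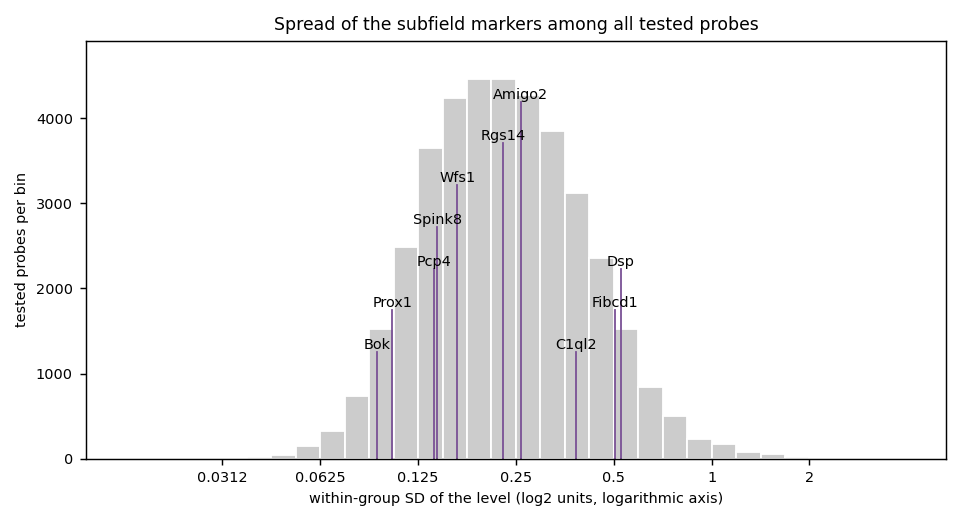
Within-group SD of the level, in log2 units on a logarithmic axis, for all 39142 tested probes (grey bars, probes per bin) and for the 10 markers (lines). Bok and Prox1 lie at the steady end with 0.09 and 0.10, and Fibcd1 and Dsp at the variable end with 0.50 and 0.52.

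The 3 most variable markers are shown with the 250 bases before their transcription start in RefSeq (GRCm38.p6), since many regulators of transcription bind close to the start of a gene, with each CG dinucleotide in capitals.
Dsp, chr13:38151044-38151293, plus strand: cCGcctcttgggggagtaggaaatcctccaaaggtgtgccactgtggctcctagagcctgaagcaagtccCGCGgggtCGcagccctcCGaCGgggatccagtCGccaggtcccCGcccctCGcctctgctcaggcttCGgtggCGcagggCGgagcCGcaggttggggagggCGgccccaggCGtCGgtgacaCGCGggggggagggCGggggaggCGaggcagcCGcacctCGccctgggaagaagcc
Fibcd1, chr2:31846006-31846255, minus strand: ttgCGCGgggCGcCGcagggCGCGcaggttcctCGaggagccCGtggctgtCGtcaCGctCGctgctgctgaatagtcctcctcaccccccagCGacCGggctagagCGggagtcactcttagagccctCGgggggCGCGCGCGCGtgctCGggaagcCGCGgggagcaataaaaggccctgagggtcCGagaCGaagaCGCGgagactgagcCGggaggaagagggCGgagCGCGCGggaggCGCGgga
C1ql2, chr1:120340332-120340581, plus strand: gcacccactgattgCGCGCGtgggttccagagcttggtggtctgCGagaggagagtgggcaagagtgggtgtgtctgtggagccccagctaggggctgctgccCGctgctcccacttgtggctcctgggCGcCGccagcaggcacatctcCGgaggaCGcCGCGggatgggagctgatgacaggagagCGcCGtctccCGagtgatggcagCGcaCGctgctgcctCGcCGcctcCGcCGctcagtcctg

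All of these windows were rich in CG dinucleotides. The Dsp window held 22, the Fibcd1 window 34 and the C1ql2 window 20, where 85.2%, 96.5% and 82.1% of 32851 RefSeq promoter windows of the same length held fewer, and the median window held 6.0. The windows of other markers held from 3 in Pcp4 to 38 in Amigo2, with 23 in Wfs1 and 11 and 20 in the windows of Prox1. A high count was thus not particular to the most variable markers. PGC-1α has no DNA binding of its own and acts through factors such as the oestrogen-related receptors, the nuclear respiratory factors and partners at CREB sites. The letters AAGGTCA, a site of oestrogen-related receptors, were searched on both strands and were present in 4.08% of all windows. GCATGCGC, part of the NRF1 site, was in 2.26%, and TGACGTCA, the full CREB site, in 1.55%. None of the 3 motifs was found in the 9 windows of the 8 markers that matched, which says only that these letters are not in these windows.

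To describe the subfields on each array, the deviations of their markers from the 10-array means were averaged. The dentate value was -0.55, -0.21, -0.06, 0.14 and 0.05 on PGC-1αf/f replicates 1 to 5 and 0.32, -0.02, 0.17, 0.13 and 0.04 on nPGC-1α replicates 1 to 5. The CA2 value was -0.30, -0.02, 0.00, 0.16 and 0.04 on the control arrays and 0.16, -0.06, -0.09, 0.14 and 0.04 on the nPGC-1α arrays. For nPGC-1α replicate 1 it rested on Rgs14 and Amigo2, since the Pcp4 spot was an outlier and not used. The CA1 value ranged from -0.30 to 0.31 on the control arrays and from -0.09 to 0.06 on the nPGC-1α arrays. For replicate 1 it rested on Fibcd1 and Wfs1 in the control mouse and on Fibcd1 alone in the nPGC-1α mouse, where outlier spots were not used. The lowest array for the dentate, CA1 and CA2 values was PGC-1αf/f replicate 1, whereas Bok, for CA3, was at 0.07 there. The markers within these subfields were not alike on that array. Dsp, Fibcd1, Rgs14 and Amigo2 had their lowest level of all arrays, and C1ql2, at -1.01, lay below its control mean. Prox1, at -0.11, and Pcp4, at 3.53, had their highest control value, and Wfs1, at 1.97, lay above its control mean. As group means, the dentate markers were at -0.13 ± 0.27 in PGC-1αf/f mice and 0.13 ± 0.13 in nPGC-1α mice (SD, n = 5 each). The difference was 0.26, and 0.15 without PGC-1αf/f replicate 1. For the other subfields the group means of these deviations differed by 0.01 for CA1, 0.06 for CA2 and 0.00 for CA3.

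The position of PGC-1αf/f replicate 1 was followed through further subfield genes. The list held 33 genes with the 10 markers, all of which were tested, and 26 of them had values on all arrays. On PGC-1αf/f replicate 1, 12 of these 26 genes had their lowest level, where 9.95% of all named genes with 10 values had theirs. They include the markers Dsp, Fibcd1, Rgs14 and Amigo2, and without the markers they were 8 of 19 genes. By subfield they were 5 of 7 CA2 genes, 4 of 10 dentate genes, 2 of 4 CA1 genes and 1 of 5 CA3 genes. On the same array 4 of the 26 genes had their highest level, among them the other 2 of 4 CA1 genes, Mpped1 and Ccn3, and 0 of 7 CA2 genes. The genes given here for this array were chosen after their values were seen. Avpr1b, the vasopressin receptor of CA2 neurons, was not well above background there, with a measured level of -6.36, and was between -5.10 and -3.76 on the other arrays. Ccdc3 was at -6.02 against -4.84 to -3.39. Cacng5, a subunit that modulates AMPA receptors, was at -3.07 against -2.09 to -1.45. Lct, a dentate gene, was at 0.10 and between 0.89 and 1.77 elsewhere.

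Genes of the ventral hippocampus went the other way on the same array. All 3 of them, Trhr, Dcn and Grp, had their highest level on PGC-1αf/f replicate 1, where 23.6% of all named genes with 10 values had theirs. Trhr, the receptor of thyrotropin-releasing hormone, was at -0.02 there and between -2.24 and -0.96 on the other 9 arrays. Dcn, the matrix proteoglycan decorin, was at 2.95 against 1.74 to 2.48, and Grp, gastrin-releasing peptide, was at 2.21 against 1.35 to 1.89. The mean deviation of the 3 genes was 0.86 on this array and between -0.50 and 0.14 on the other arrays. Between groups the 3 genes differed by -0.26 to -0.05, and 0 of 3 passed an unadjusted p of 0.05, where 11.9% of all tested probes did.

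**Figure D4:**
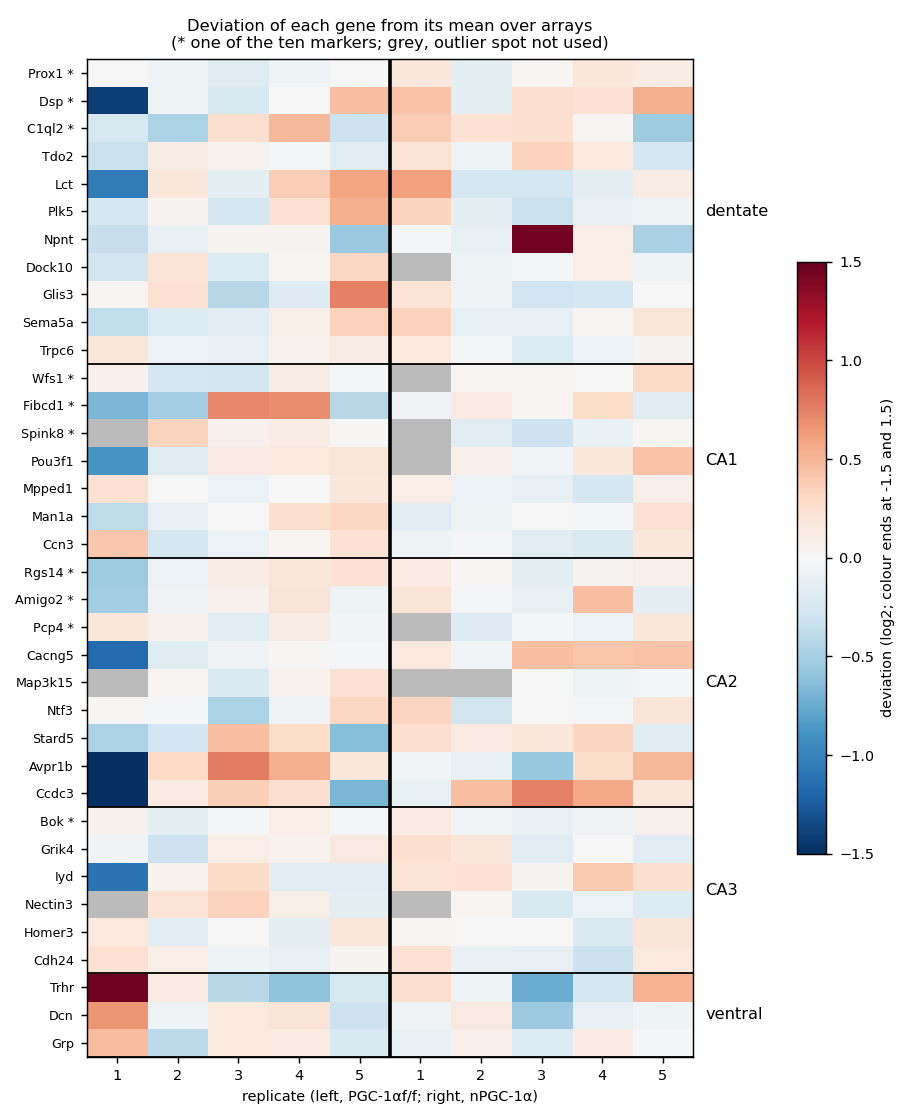
Deviation of 33 subfield genes and 3 genes of the ventral hippocampus from their own mean over the 10 arrays (log2, colour scale ending at -1.5 and 1.5), with 1 column per array. The first column, PGC-1αf/f replicate 1, holds the lowest value of 12 of the 26 subfield genes with all values and the highest value of all 3 ventral genes.

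Other measures of this array stood beside the pattern. The share of outlier spots was 10.5% on it and 11.6% on the replicate 1 array of nPGC-1α, while the other arrays had at most 4.75%. On PGC-1αf/f replicate 1 the signal at the 75th percentile, 3883, was the lowest of all arrays. The share well above background there, 74.5%, was the lowest of the controls. The dimmest level well above background was -6.56 there, against -7.51 to -7.41 for the other controls and -6.62 to -5.75 for nPGC-1α. Avpr1b, at -6.36, and Ccdc3, at -6.02, lay near -6.56, while the other genes named as lowest there lay at -3.07 or above. Of the 26 subfield genes, 0 had their lowest level on nPGC-1α replicate 1. PGC-1αf/f replicate 1 was also the 1 control array with high Y-linked transcripts. The mean deviation of the oligodendrocyte genes was -0.48 on it, over 4 of 5 genes with a value there, and that of the astrocyte genes was 0.33, over 2 of 4. The part of these measures in the pattern was not tested.

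The 23 further subfield genes were compared between groups as well. At an unadjusted p of 0.05, 1 was higher and 0 lower on the arrays labelled nPGC-1α, and 0 passed the adjusted level. Of all tested probes, 11.9% passed this unadjusted level in either direction. Their median difference was 0.02, where it was -0.02 over all named genes. The higher gene was in the CA2 list. Cacng5 was at -2.18 ± 0.50 in control and -1.62 ± 0.22 in nPGC-1α mice (SD, n = 5 each), a difference of 0.56 (limma unadjusted p 0.0266, adjusted p 0.353) that was 0.34 without PGC-1αf/f replicate 1 and did not pass without nPGC-1α replicate 3, 4 or 5. Of the lists without such a gene, Npnt had the largest difference among further dentate genes, at 0.37 (limma unadjusted p 0.252). Pou3f1 had the largest among further CA1 genes, at 0.28 over 9 arrays (unadjusted p 0.229). Iyd had the largest among CA3 genes, at 0.44 (unadjusted p 0.0693). Without PGC-1αf/f replicate 1 these were 0.09 for Pou3f1 and 0.22 for Iyd. Slc17a6 had the largest in the subiculum, at 0.28 (unadjusted p 0.144). Drd2, well above background on 8 of 10 arrays, had it among 2 tested genes of hilar mossy cells, at -0.22 (unadjusted p 0.165). The median difference was 0.00 over further dentate genes, with 4 of 8 higher, and -0.07 over further CA1 genes, with 1 of 4 higher. It was 0.00 over further CA3 genes, with 3 of 5 higher. Over subiculum genes it was 0.10, with 3 of 3 higher, and over mossy cell genes -0.11, with 1 of 2 higher.

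Genes of neighbouring tissue, which can bear on dissection, and genes of other cell types were also compared between groups. Whether dissection had a part in their differences was not tested. Of 3 tested neocortex genes 1 was higher on the arrays labelled nPGC-1α, Cux2, an upper layer transcription factor, by 0.36 (limma unadjusted p 0.0202, adjusted p 0.323). Of 3 tested microglia genes 1, Tmem119, was lower, with a difference of -0.21 (unadjusted p 0.0437, adjusted p 0.407). Beside these counts, 11.9% of all tested probes passed the unadjusted level in either direction, and 8.52% passed it as lower. None passed in the other lists, in which the largest differences were 0.43 for Slc17a7 among excitatory neuron genes, -0.37 for Gad1 among inhibitory neuron genes, 0.53 for Mog among oligodendrocyte genes, -0.20 for Gfap among astrocyte genes, 0.31 for Prkcd among thalamus genes, 0.14 for Drd1 among striatum genes, -0.80 for Chrnb4 among medial habenula genes and -1.43 for Ttr among choroid plexus genes. Chrnb4 was well above background on only 1 of 5 nPGC-1α arrays. The median differences of these lists were 0.00 for excitatory neuron, -0.07 for inhibitory neuron, 0.32 for oligodendrocyte and -0.08 for astrocyte genes. They were -0.15 for thalamus, 0.01 for striatum, -0.36 for medial habenula and -0.09 for choroid plexus genes. In the excitatory neuron list 3 of 5 genes were higher, and in the thalamus list 1 of 3. Which genes passed depended on the arrays included. Cux2 did not pass without PGC-1αf/f replicate 4. Tmem119 no longer passed when any of 8 arrays was left out, the exceptions being replicates 1 and 5 of PGC-1αf/f. Its difference stayed between -0.24 and -0.16 when single arrays were left out. The groups did not overlap for Tmem119 (exact permutation p 0.00794, unadjusted), as for 2.74% of the probes with 10 values. Drd1 was at 0.36 and passed without PGC-1αf/f replicate 1 (unadjusted p 0.0206). Of the 14 lists without a call, subfield lists included, 9 had their largest difference past the unadjusted level when 1 particular array, or either of 2, was left out.

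Some of these lists varied between single arrays more than the subfield markers did. The mean deviation of the 6 choroid plexus genes ran from -1.35 to 1.70 among control arrays and from -0.76 to 2.04 among nPGC-1α arrays, and was highest on replicate 4 of PGC-1αf/f and replicate 3 of nPGC-1α. The value of nPGC-1α replicate 3 was over 5 of the 6 genes, without Ttr. The Ttr difference of -1.43 thus left out the nPGC-1α array with the highest choroid plexus value. The other 5 genes, which had a value on that array, differed between groups by -0.37 to 0.23. The mean deviation of 3 tested medial habenula genes was 2.00 on PGC-1αf/f replicate 2 and at most 0.40 elsewhere. The part of neighbouring tissue in the marker differences was not tested.

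Whether markers of the same subfield varied together over the arrays was examined next. Over the 45 pairs of markers, 4 pairs correlated at an unadjusted permutation p of 0.05 and 0 at an adjusted p of 0.05, the lowest adjusted p being 0.48. The 9 pairs within a subfield had a median Pearson r of -0.17, with a range of -0.45 to 0.70, and 3 of them were above 0. Among these, Prox1 with Dsp had r 0.40 (permutation p 0.276, adjusted p 0.745, rho 0.61, permutation p 0.0659, adjusted p 0.694), 0.30 without the 2 arrays farthest from the median of Prox1 and 0.83 without PGC-1αf/f replicate 1. The 36 pairs between subfields had a median of 0.19 and ran from -0.47 to 0.82. These values are over 8 to 10 arrays.

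The pair with the highest r was Dsp of the dentate gyrus with Rgs14 of CA2 (r 0.82, permutation p 0.0258, adjusted p 0.48, Spearman's rho 0.48, permutation p 0.165, adjusted p 0.736). Without the 2 arrays farthest from the median of Dsp, r was 0.24. It was also 0.24 when only PGC-1αf/f replicate 1 was left out, so the relation rests on that array. Rgs14 with Amigo2, both of CA2, had r 0.70 (permutation p 0.0427, adjusted p 0.48, rho 0.47, permutation p 0.18, adjusted p 0.736). For them r was 0.03 without the 2 arrays farthest from the median of Rgs14 and 0.23 without PGC-1αf/f replicate 1 alone. This relation thus depends on that array too. Fibcd1 with Amigo2 had r 0.66 (permutation p 0.0383, adjusted p 0.48, rho 0.67, permutation p 0.0395, adjusted p 0.694). For this pair r was 0.77 without the 2 arrays farthest from the median of Fibcd1 and 0.65 on slide 1. It fell to 0.49 without PGC-1αf/f replicate 1, the lowest array for both genes.

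C1ql2 of the dentate gyrus with Fibcd1 of CA1 had the lowest p (r 0.74, permutation p 0.0153, adjusted p 0.48, rho 0.70, permutation p 0.0307, adjusted p 0.694). It was 0.76 without the 2 arrays farthest from the median of C1ql2, 0.77 on slide 1 and 0.74 after the group means were subtracted. The 4 arrays lowest for C1ql2, which were replicates 1, 2 and 5 of PGC-1αf/f and replicate 5 of nPGC-1α, were also the 4 lowest for Fibcd1. They were the 4 lowest for Npnt of the further dentate list and Slc17a7 of the excitatory neuron list too. This was thus not particular to the pair, though those genes were picked after their values were seen.

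**Figure D5:**
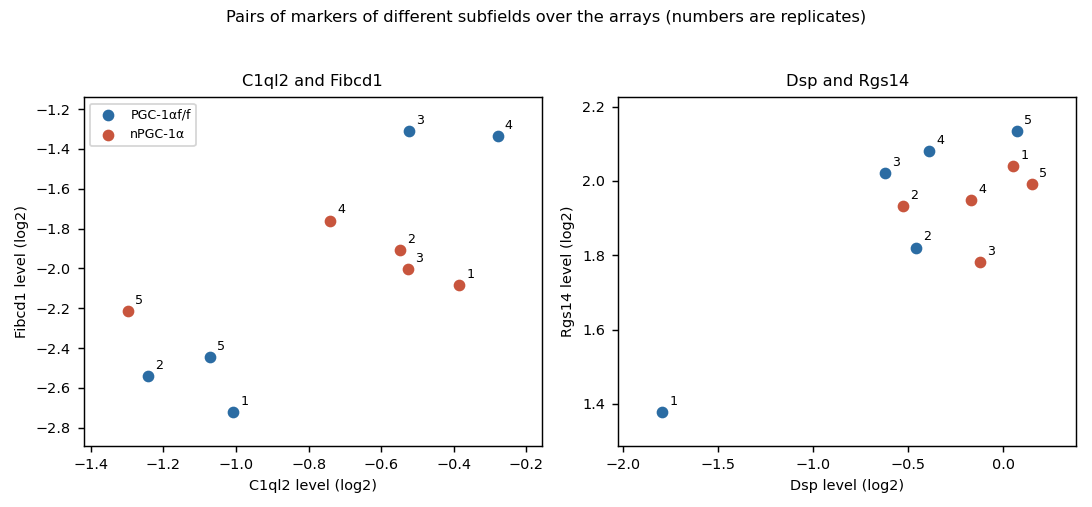
Levels of C1ql2 against Fibcd1 (left) and of Dsp against Rgs14 (right) on each array, in log2 units relative to the 75th percentile of the array, with numbers for replicates. In the left panel 4 arrays are low for both genes, and in the right panel PGC-1αf/f replicate 1 lies apart from the other 9 arrays.

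For each marker, the named genes whose levels were most like it over the arrays were found by Pearson r. These are the highest values among 14894 to 16720 genes and carry no test. For Dsp they were Serinc2 (r 0.95) and Epha5 (0.94). For Rgs14 they were Nr4a1 (0.96) and Gstm6 (0.96), and for Amigo2 Zfp324 (0.97) and Tunar (0.94). Without the 2 arrays farthest from the marker's median, the r of Epha5 with Dsp was 0.63 and that of Gstm6 with Rgs14 was 0.68. For C1ql2 they were Fam217b (0.96) and Klrg2 (0.96), and for Fibcd1 Exog (0.94) and Vma21 (0.94). For Prox1 they were Raly (0.87) and Gm29856 (0.87), and for Bok Accs (0.96) and Clvs1 (0.95). Over 9 arrays, Wfs1 was most like Rgs4 (0.94) and Epb41l3 (0.92), and Pcp4 most like Zfp760 (0.93) and Taf13 (0.93). Over 8 arrays, Spink8 was most like Il21r (0.99) and Rabep1 (0.98). No marker was among the 2 most alike genes of another marker.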

How the data were processed

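The deposited scanner files hold a 1-colour (Cy3) intensity per spot, which the authors' Feature Extraction software (11.5.1.1 in the file headers) had background-subtracted and detrended, without normalization between arrays. A deposited table of the authors' log2 values (41606 probes) served as an alternative. Control and outlier spots were left out, replicate spots were averaged, and the array's 75th percentile was subtracted on the log2 scale. Probes that were well above background on each of the 5 arrays of a group, with at least 3 values per group, were kept (39142). RefSeq accessions (GRCm38.p6 table) named 33767 of 56605 probes, and the brightest tested probe stood for a gene. Arrays were designed on mm9, and the only coordinates given are those of RefSeq promoter windows (GRCm38.p6).

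Differences (nPGC-1α minus PGC-1αf/f) were tested with limma 3.58.1 in R 4.3.3, two-sided, with Benjamini-Hochberg adjustment over all probes, and by two-sided exact permutation (smallest p 0.00794 for 5 against 5). Pairs were tested with 100000 permutations, or all of them under 10 arrays, and adjusted over 45 pairs. The test was checked on simulated data. Arrays are separate mice, and their number limits the precision. Named genes are the markers, Ppargc1a, the 2 most alike genes per marker and, per list, the genes past an unadjusted p of 0.05 or else the largest difference. Genes named for PGC-1αf/f replicate 1 or for an outlying array were chosen after their values were seen. Members and lists were chosen with earlier results of these data known. Alternatives were other scalings, filters, blocks, variance models, an exact Mann-Whitney test and leaving out arrays. Some genes of the lists are not reported here.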

Additional observations from a re-analysis of the deposited data

Results flagged for a closer look

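In 5 of 91 groups of 4 or 5 arrays checked, 1 array lay far from the others, where chance flags about 1 in 20 groups, or about 5. For the marker Wfs1, nPGC-1α replicate 5 was at 2.18 and the other 3 arrays used were at 1.89 to 1.92. Of CA2 genes, Cacng5 had -3.07 for PGC-1αf/f replicate 1, where the remaining control arrays had -2.09 to -1.88. Avpr1b had -6.36 for the same array, not well above background, where the others had -4.37 to -3.76. Calb2 of hilar mossy cells was at -0.73 on nPGC-1α replicate 5 against -0.36 to -0.29 on 3 arrays. Slc17a6, a gene of the subiculum list, was at -0.90 on PGC-1αf/f replicate 5 against -0.14 to 0.15.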

How the results depend on the processing

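The count of markers past an adjusted p of 0.05 was 0 under all 26 alternatives. The count past an unadjusted p of 0.05, which was 1 (Spink8), was 0 under quantile normalisation, median centring, normexp correction with quantile normalisation, the authors' log2 values, no filter on dim probes, outlier spots kept, slide as a block, a replicate block, the class of Y-linked transcripts as a block, leaving out PGC-1αf/f replicate 2 together with nPGC-1α replicate 3, and the 6 arrays with low Y-linked transcripts, an alternative chosen after seeing the data. Leaving out 1 array at a time gave counts of 0 to 2, the 2 being Dsp and Spink8 without PGC-1αf/f replicate 5. The count by exact permutation test, 0 in the comparison above, was 2 under quantile normalisation (Wfs1 and Spink8) and 0 to 1 when single arrays were left out, with Prox1 past it without nPGC-1α replicate 2 (exact permutation p 0.00794, unadjusted). The exact Mann-Whitney test also gave 0. Spink8 stayed lower, between -0.36 and -0.11, and Prox1, Wfs1 and Amigo2 stayed higher under all alternatives, Amigo2 by 0.04 to 0.30, while Dsp was at 0.00 over those 6 arrays and higher under the others. The cause of these changes was not tested.

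Small differences changed sign. Pcp4 was at 0.0900 under quantile normalisation, 0.0639 under normexp correction and 0.108 with the authors' values. Bok was at 0.0181, 0.0459, 0.0407 and 0.0171 under quantile normalisation, median centring, normexp correction and the authors' values, and between -0.0347 and 0.0259 when single arrays were left out. With array weights C1ql2 was at -0.0325, Fibcd1 at -0.201 and Rgs14 at -0.0180. Leaving out single arrays, C1ql2 was at 0.0211 to 0.275, Fibcd1 at -0.0854 to 0.267, Pcp4 at -0.126 to -0.00843 and Rgs14 at -0.0761 to 0.113. With both replicate 2 of PGC-1αf/f and replicate 3 of nPGC-1α left out, C1ql2 was at -0.0220 and Fibcd1 at -0.0383, and over the 6 arrays Rgs14 was at -0.0741.

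Same-numbered arrays of the groups deviated together with correlations of 0.22, 0.08, 0.12, 0.20 and 0.36 for replicates 1 to 5. For replicates 1, 2 and 5 this was above any correlation with another number, while for replicates 3 and 4 another number gave 0.23 and 0.24. No label ties the numbers and 1 value was below 0.1, and the number was not taken as a pairing. These correlations cannot decide whether the numbers mark pairs, since all 5 were above 0. Arrays of slide 1 with the same number also shared a slide column. The replicate block gave 0 markers past the unadjusted level in place of 1, and 16.6% of all probes in place of 11.9%.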
